A study of Saccharomyces cerevisiae with 16 samples.

Results

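The 55 genes described here encode ribosome biogenesis factors of budding yeast (Saccharomyces cerevisiae), the nucleolar proteins that process ribosomal RNA and assemble the ribosomal subunits. They were chosen by name from the 6717 genes of the count table, by a rule that uses no measured value. Earlier results of these data were known when they were chosen. The 55 comprise 5 proteins of small nucleolar ribonucleoprotein particles (snoRNPs), 23 factors of the small subunit and 24 factors of the large subunit. The remaining genes encode 2 factors that act on both subunits and 1 other nucleolar protein, NOP13 (YNL175C). All 55 were found in the R64 annotation, had counts in every library and passed the filter on low counts, with a lowest count of 24. RNA was sequenced from S96 yeast (MATa lys5), called grande, and from petite yeast made from S96 with ethidium bromide, which had lost the mitochondrial gene COX2 and did not grow on glycerol. Both strains were grown in YPD, a rich medium, or in YM, a minimal medium supplemented with lysine, and each culture was divided into a part without MCHM and a part with 0.055% (v:v) MCHM. MCHM, 4-methylcyclohexane methanol, is an alcohol used to clean coal. The sample labels give 2.5 h of growth after the division, whereas the published text states a shorter exposure, and which of them holds was not settled. This gave 8 groups of 2 cultures each and 16 libraries, grande and petite yeast in YPD and YM, untreated and treated.

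Ribosome synthesis starts in the nucleolus, where RNA polymerase I makes a long precursor that holds the RNAs of both subunits. Box C/D snoRNPs methylate this precursor and box H/ACA snoRNPs convert uridines to pseudouridine, each guided by its small RNA. The small subunit processome, built from the UTP complexes and the U3 snoRNP, folds and cleaves the part that becomes the small subunit, and a separate series of helicases, GTPases and scaffold proteins builds the large subunit. Growing yeast spend much of their transcription on this pathway, and its genes are known to be turned down together in poor medium and under many stresses. Their promoters are known for a pair of short elements, PAC, bound by Dot6 and Tod6, and RRPE, bound by Stb3.

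The letters of both elements were looked for on both strands of the 250 bases before the coding start of each gene, in the R64 genome of RefSeq. PAC was searched as GATGAG and RRPE as AAAAATTT, which read CTCATC and AAATTTTT on the other strand. PAC letters were present before 51 of the 55 genes (92.7%) and RRPE letters before 47 (85.5%), against 17.1% and 13.4% of all 5987 promoters of protein-coding genes. Both were present before 44 of the 55 genes (80.0%) and 4.99% of all promoters, and UTP22 was the gene with neither. Among 137 genes of cytosolic ribosomal proteins, 10.2% had PAC letters, 11.7% had RRPE letters and 0.73% had both. Many promoters hold several copies, and the copy nearest to the coding start lay a median of 130 bases before it for RRPE and 108 bases for PAC, over the genes that hold each. In 34 of the 55 genes a copy of each fitted within 30 bases without overlap, and in the closest such pair RRPE was the farther from the coding start in 29 genes and PAC in 5. The windows of 7 genes whose counts are described later are shown to let the order, strand and spacing of the elements be seen, each on the strand of its gene, with every match of PAC or RRPE in capitals, overlapping matches included.
UTP21 (chrXII:937332-937361, minus strand): tttgagAAAAATTTcgcGATGAGattgcta
GAR1 (chrVIII:283411-283440, minus strand): agtgAAAAATTTTTcgaGATGAGgaaagga
NOP56 (chrXII:545951-545980, plus strand): aagtgAAATTTTTttgagtGATGAGatggg
NOP7 (chrVII:695271-695300, plus strand): taaagaAAATTTTTtgcGATGAGATGAGat
CIC1 (chrVIII:210705-210734, plus strand): aAAAAATTTTTccactggagCTCATCgcaa
DBP2 (chrXIV:413479-413508, plus strand): cgatgCTCATCgcagaAAATTTTTccttca
EBP2 (chrXI:125630-125659, plus strand): actaCTCATCgggactgaAAATTTTTtatt
Within these windows the RRPE letters come first in UTP21, GAR1, NOP56, NOP7 and CIC1 and the PAC letters first in DBP2 and EBP2, and further copies outside the window can lie in another order. The window of NOP7 holds overlapping matches of PAC, and those of GAR1 and CIC1 hold overlapping matches of RRPE on both strands. A match of letters is a description of the promoter and not evidence of a bound site.

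Total counts lay between 2015485 and 5694566 per library. Genes of the mitochondrial genome had 0 counts in the 8 petite libraries and 0 to 12 counts in the grande libraries, too few to tell the strains apart by these genes alone. Levels are given as normalized CPM (counts brought to a common library size with edgeR's TMM factors). A gene was called when its fold change was 2 or more and its p, from the quasi-likelihood test of edgeR in 1 fit to all 16 libraries, stayed under 0.05 after Benjamini-Hochberg adjustment over 5856 genes. SE is the standard error of a log2 fold change. With 2 libraries per group the p-values rest on the spread between libraries of the same group, estimated over all groups together. The fit takes the treated and untreated parts of a culture as independent. The common biological coefficient of variation was 29.5%. Culture numbers in the deposited table form a low-numbered and a high-numbered run of cultures, called the lower and the higher series, and every group has 1 library in either. Values of single libraries are given below in that order, lower series first.

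The 55 genes took the largest share of counts in untreated yeast in YPD. In grande yeast in YPD they made up 1.06% and 1.88% of the counts in the 2 untreated libraries and 0.574% and 0.661% with MCHM. Petite yeast in YPD had shares of 1.18% and 1.83% untreated and 0.549% and 0.652% with MCHM. The treated libraries of both strains thus lay below both untreated libraries. In grande yeast in YM the shares were 0.885% and 1.30% untreated and 0.623% and 0.743% with MCHM. Petite yeast in YM had 0.914% and 0.797% untreated and 0.654% and 0.695% with MCHM. The share was lower with MCHM than without it in each of the 8 cultures, with the smallest gap in the petite cultures in YM. These shares are relative to all counted RNA, so less RNA from these genes and more RNA from others cannot be told apart.

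The groups were then put in order by the median level of the 55 genes. On the log2(CPM + 0.5) scale, untreated grande and petite yeast in YPD stood together at the top, with 7.33 ± 0.56 and 7.33 ± 0.45 (SD, n = 2 in each group here). Untreated grande yeast in YM followed with 6.98 ± 0.33 and untreated petite yeast in YM with 6.74 ± 0.27. The treated groups lay below, with 6.55 ± 0.21 for grande yeast in YM, 6.39 ± 0.09 for petite yeast in YM, 6.34 ± 0.26 for grande yeast in YPD and 6.21 ± 0.09 for petite yeast in YPD. Each step between neighbours in this order was within the larger SD of the pair, whereas the drop from untreated to treated yeast in YPD was larger than both SDs. The level also differed between the series. In untreated yeast in YPD, the library of the higher series exceeded that of the lower series for 55 of 55 genes in grande yeast (median ratio 1.88) and 54 of 55 genes in petite yeast (median ratio 1.59). In untreated petite yeast in YM the higher series was above the lower one for 11 of 55 genes.

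**Figure D1:**
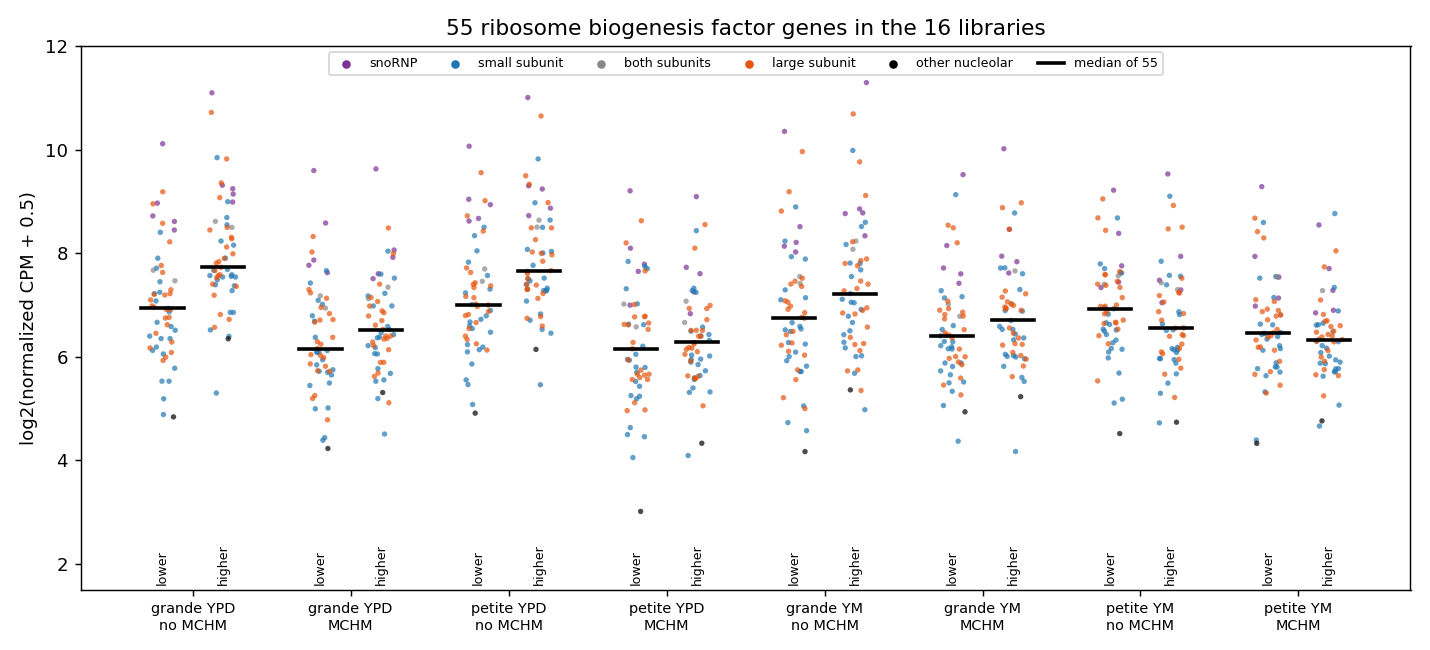
Each point is 1 of the 55 genes in 1 library, on the log2(normalized CPM + 0.5) scale, with the 2 libraries of each group side by side (lower and higher culture series), colours for the role of the protein and a black line at the median. The medians are highest in the untreated higher-series libraries in YPD (211 and 200.2 CPM) and lowest in the treated lower-series libraries in YPD (70.8 and 70.7 CPM).

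The first question was how MCHM changed these genes in grande yeast in YPD. All 55 genes had a negative log2 fold change, with a median of -1.04 and a range of -2.80 to -0.67, while the median of all genes tested was -0.03. Of the 55 genes 6 were called lower and 0 higher (called lower among all genes: 0.427%, 25 genes). In 45 of the 55 genes both treated libraries were below both untreated libraries, as was the case for 22.7% of all genes. The genes called were DBP2, NOP7, CIC1 and DBP9 of the large subunit and GAR1 and NOP56 of the snoRNPs, and no small subunit factor was among them, although the median of the 23 small subunit factors was -0.98. Labels say that untreated and treated samples came from 1 split culture, and a fit with a replicate block for the culture called 17 of the 55 genes lower (1.45% of all genes in that fit). Taken within the series, the median log2 difference was -0.61 between the lower-series libraries and -1.30 between the higher-series libraries. The number called changed in both directions when single libraries were left out, and in some of these fits the calls were lost. This held also for libraries of other groups, which share the estimate of spread. The share of all genes called in such fits is not given, so these changes cannot be read as particular to the 55 genes. The median was -0.47 without the higher-series untreated library, and the lowest median with any library left out was -1.42.

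In petite yeast in YPD the response had the same direction and more of the genes passed. The log2 fold change was negative for 55 of 55 genes, with a median of -1.19 and a range of -2.87 to -0.69, against -0.03 over all genes. Of the 55 genes 27 were called lower and 0 higher (called lower among all genes: 5.24%, 307 genes), and the 6 genes called in grande yeast were all among the 27. In 54 of the 55 genes both treated libraries were below both untreated ones (28.9% of all genes), with UTP18 (YJL069C), a small subunit processome protein, as the exception. The called genes were 4 of 5 snoRNP proteins, 7 of 23 small subunit factors, 15 of 24 large subunit factors and 1 of the 2 factors of both subunits. Whether these shares differ between roles was not tested. A replicate block for the culture gave 42 of the 55 genes called lower (6.47% of all genes in that fit). The median log2 difference was -0.86 within the lower series and -1.43 within the higher series. Here too the number called changed in both directions when single libraries were left out. The median then stayed between -1.47 and -0.83.

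**Figure D2:**
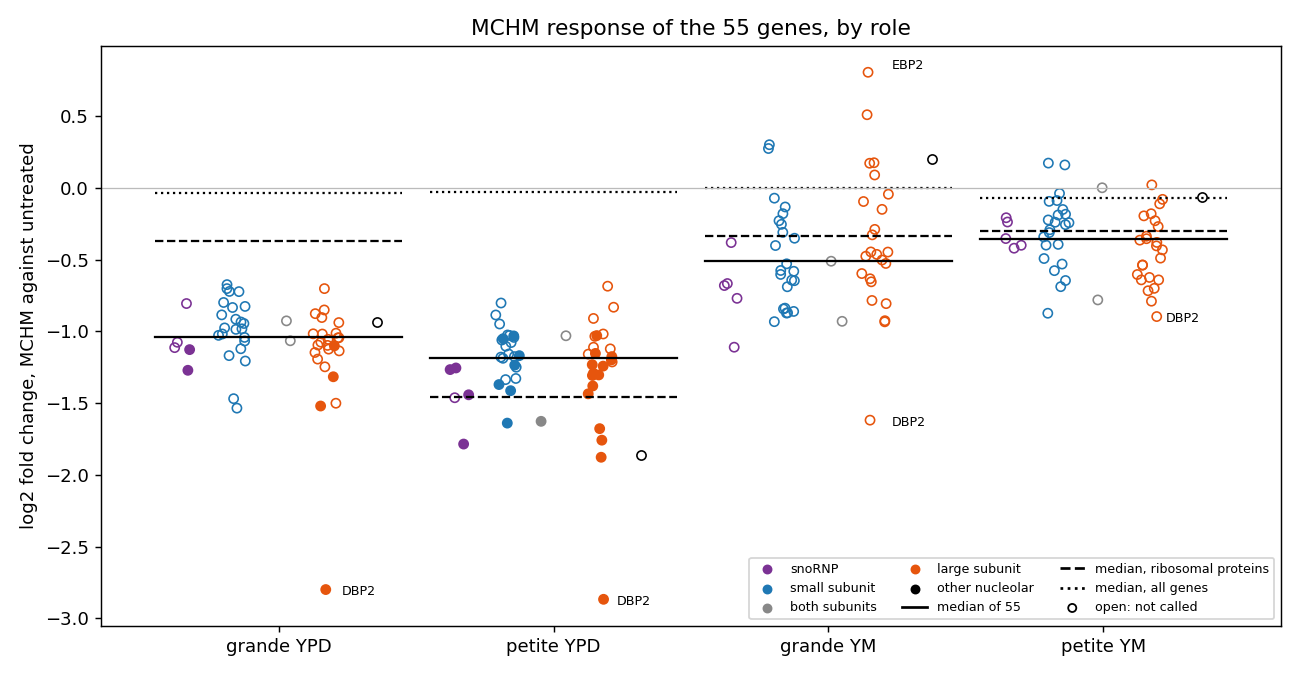
Log2 fold change of the 55 genes with MCHM against untreated (vertical axis) in the 4 strain and medium pairs (horizontal axis), each circle a gene, filled where called and coloured by role. The medians of the 55 genes (solid lines) are -1.04, -1.19, -0.51 and -0.35 from left to right, those of ribosomal protein genes (dashed) are -0.37, -1.46, -0.34 and -0.30, and those of all genes (dotted) lie between -0.07 and 0.00.

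Among the snoRNP proteins, GAR1 (YHR089C), a core protein of the H/ACA particles, was called in the most comparisons of all 55 genes, 4 of the 12. It had 348 and 564 CPM in untreated grande cultures in YPD and 197 and 181 CPM with MCHM. Petite yeast in YPD had 407 and 422 CPM untreated and 127 and 113 CPM with MCHM. The groups did not overlap in either strain. The log2 fold changes were -1.27 (SE 0.27, adjusted p = 0.033 by edgeR) and -1.79 (SE 0.27, adjusted p = 0.0032). NOP56 (YLR197W), a core protein of the C/D particles, had 391 and 506 CPM untreated and 217 and 194 CPM treated in grande yeast in YPD. The petite libraries in YPD held 489 and 467 CPM untreated and 200.0 and 152 CPM treated. NOP56 thus fell more than 2-fold in both strains, with log2 fold changes of -1.13 (adjusted p = 0.034 from the same test) and -1.44 (adjusted p = 0.0047). Its partner NOP58 (YOR310C) and the pseudouridine synthase CBF5 (YLR175W) were called in petite yeast, with log2 fold changes of -1.27 (adjusted p = 0.018 by edgeR) and -1.26 (adjusted p = 0.016). In grande yeast their values were -1.11 and -0.81, and neither was called.

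NOP1 (YDL014W), the methyltransferase of the C/D particles known as fibrillarin in other species, had the highest level per length of the 55 genes, a mean of 1080 CPM per kb over all libraries against a median of 64.9. It had 1106 and 2187 CPM in untreated grande yeast in YPD and 772 and 789.5 CPM with MCHM. Petite yeast in YPD had 1070 and 2053 CPM untreated and 588 and 545 CPM treated. The treated libraries were below the untreated ones in both strains. The 2 untreated libraries of each strain also stood far apart from each other, and the log2 fold changes of -1.08 (SE 0.43, adjusted p = 0.23 by edgeR) and -1.46 (SE 0.44, adjusted p = 0.05) were not called.

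Among the small subunit factors, the median in petite yeast was -1.16, against -1.44 for the snoRNP proteins and -1.21 for the large subunit factors. MPP10 (YJR002W) and IMP4 (YNL075W), which form a complex with IMP3 on the U3 snoRNP, were called in petite yeast in YPD, with log2 fold changes of -1.41 (adjusted p = 0.019 by edgeR) and -1.03 (adjusted p = 0.036). MPP10 had 128 and 217 CPM untreated and 65.6 and 64.1 CPM treated there, and IMP4 had 74.8 and 113 CPM untreated and 42.6 and 49.2 CPM treated. IMP3 (YHR148W) was called there as well, with a log2 fold change of -1.24 (adjusted p = 0.013 by edgeR). None of these 3 genes was called in grande yeast in YPD. UTP7, UTP8, UTP14 and ENP2 were the other small subunit factors called, with log2 fold changes between -1.64 (ENP2) and -1.05 (UTP8). UTP10 (YJL109C) of the UtpA complex, UTP21 (YLR409C) of UtpB and UTP22 (YGR090W) of UtpC were not called in any comparison. Their log2 fold changes in petite yeast in YPD were -0.80, -1.16 and -1.08, and in grande yeast in YPD -0.72, -0.98 and -0.72. NSR1 (YGR159C), a nucleolin-like protein, had 338 and 918 CPM in untreated grande yeast in YPD and 171 and 262 CPM with MCHM. Its log2 fold change of -1.54 was the second largest of the 55 genes, but with a standard error of 0.54 (adjusted p = 0.17 by edgeR) it was not called. Of the pair that serves both subunits, RRP5 (YMR229C) was called in petite yeast in YPD with a log2 fold change of -1.63 (adjusted p = 0.018 by edgeR), and the helicase HAS1 (YMR290C) had -1.03 (adjusted p = 0.12).

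The largest fold change of the 55 genes in YPD was that of DBP2 (YNL112W), a DEAD-box RNA helicase that also takes part in messenger RNA packaging and decay. DBP2 had 581 and 1682 CPM in untreated grande yeast in YPD and 156.5 and 169 CPM with MCHM. The petite libraries in YPD held 751 and 1604 CPM untreated and 201 and 122 CPM treated. The treated groups were below the untreated groups, although the untreated libraries of the 2 series differed more than 2-fold. The log2 fold changes were -2.80 (SE 0.61, adjusted p = 0.038 by edgeR) and -2.87 (SE 0.61, adjusted p = 0.015). NOP7 (YGR103W), a scaffold of the large subunit that binds ERB1 and YTM1, had 297 and 537 CPM untreated and 149.9 and 141 CPM treated in grande yeast in YPD. Petite yeast in YPD had 343 and 503 CPM untreated and 109 and 121 CPM treated. NOP7 was called in both strains, with log2 fold changes of -1.52 (adjusted p = 0.034 by edgeR) and -1.88 (adjusted p = 0.0052). ERB1 (YMR049C) had log2 fold changes of -1.12 and -1.21 and was not called in either strain.

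CIC1 (YHR052W), which binds the spacer next to the large subunit RNA, was called in both strains, with log2 fold changes of -1.32 in grande yeast and -1.44 in petite yeast in YPD (adjusted p = 0.04 and 0.012 by edgeR). The helicase DBP9 (YLR276C) was called as well, with -1.10 and -1.31 (adjusted p = 0.043 and 0.0089 by edgeR). The further genes called in petite yeast alone included NOP4 (YPL043W), an RNA-binding protein, with a log2 fold change of -1.76 (adjusted p = 0.021 by edgeR). SPB1 (YCL054W), a methyltransferase of the large subunit precursor, had -1.68 (adjusted p = 0.025). The helicases DBP3 (YGL078C) and DRS1 (YLL008W) had -1.20 and -1.29 (adjusted p = 0.033 and 0.035 by edgeR), and the helicases DBP10 and MAK5, the GTPase NUG1 and the factors NOP12, NOP15 and RLP7 were called too. The GTPase NOG1 (YPL093W), the anti-association factor TIF6 (YPR016C) and BRX1 (YOL077C) were not called, with log2 fold changes of -0.91, -0.69 and -1.03 in petite yeast and -1.01, -1.05 and -1.06 in grande yeast. The GTPase gene NOG2 (YNR053C) overlaps the small nucleolar RNA gene SNR191 over 274 bases, so its counts may hold reads of both. NOP13, the other nucleolar protein, was among the least abundant of the 55 genes, with 29.6 and 70.1 CPM untreated and 7.57 and 19.6 CPM with MCHM in petite yeast in YPD. Its log2 fold change of -1.86 (SE 0.63, adjusted p = 0.075 by edgeR) was not called, and in grande yeast in YPD, where the groups overlapped, it had -0.93.

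**Figure D3:**
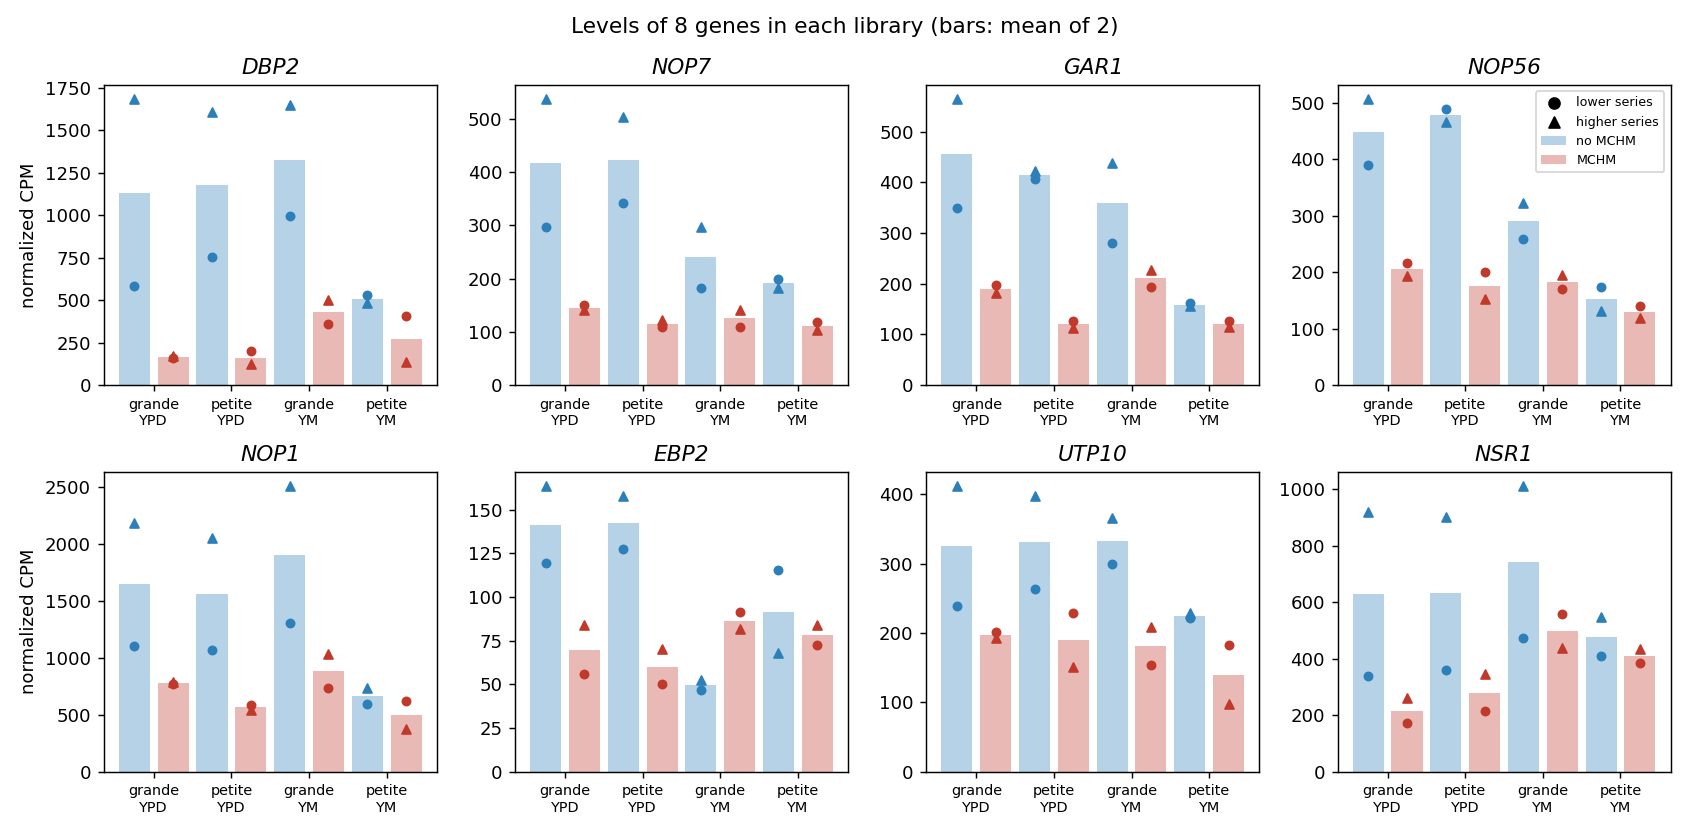
Normalized CPM (vertical axes, starting at 0) of 8 genes in the 16 libraries, with bars for the mean of the 2 libraries, circles for the lower series and triangles for the higher series, in blue without and in red with MCHM. In YPD the red symbols of all 8 genes lie below both blue ones of the same strain, and EBP2 in grande yeast in YM is the panel in which red lies above blue (91.4 and 81.8 against 46.6 and 52.4 CPM).

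In YM the genes had smaller fold changes with MCHM and none was called. In grande yeast in YM the median was -0.51 with a range of -1.62 to 0.81, and 47 of 55 genes had a negative value. edgeR called 0 of the 55 genes (called in either direction among all genes: 5.07%), and DESeq2 called 1. The share of all genes called by DESeq2 is not given, here or for the comparisons that follow. At an unadjusted p under 0.05 there were 14, of which 13 were lower and 1 higher (22.3% of all genes in either direction). Both treated libraries were below both untreated ones in 32 of the 55 genes (25.9% of all genes). The median moved to -0.25 without the higher-series untreated library and to -0.79 without the lower-series one. DBP2 again had the largest fold change, with 995 and 1648 CPM untreated and 359 and 502 CPM treated, a log2 fold change of -1.62 (SE 0.59, adjusted p = 0.13 by edgeR).

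EBP2 (YKL172W), a large subunit factor that binds BRX1, had the opposite sign in grande yeast in YM. It had 46.6 and 52.4 CPM untreated and 91.4 and 81.8 CPM with MCHM, so both treated libraries were above both untreated ones. The log2 fold change was 0.81 (SE 0.30, adjusted p = 0.14 by edgeR), and EBP2 was the gene that had p under 0.05 on the higher side. In grande yeast in YPD the same gene had 119 and 164 CPM untreated and 55.8 and 83.9 CPM treated, a log2 fold change of -1.02 (adjusted p = 0.11 by edgeR). In petite yeast in YPD, where it was called, EBP2 had a log2 fold change of -1.24 (adjusted p = 0.024 by edgeR). IMP4 had 0.30 in grande yeast in YM, with 52.0 and 71.5 CPM untreated and 72.6 and 79.8 CPM treated. The 5 snoRNP proteins and RRP5, HAS1, UTP10, UTP21 and NOP7 had values between -1.11 (NOP1) and -0.38 (CBF5) in that comparison.

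In petite yeast in YM the median was -0.35 with a range of -0.90 to 0.17, and 51 of 55 genes had a negative value. None of the 55 genes was called by edgeR (0 of 55, with 0.546% of all genes called in either direction) or by DESeq2, which called 0. One gene, NOP7, had an unadjusted p under 0.05 (1 of 55, and 7.84% of all genes), with a log2 fold change of -0.79 (SE 0.32). Both treated libraries were below both untreated ones in 31 of the 55 genes (23.5% of all genes). The median was -0.18 without the lower-series untreated library. Before treatment, 40 of the 55 genes had a negative log2 fold change in this group against grande yeast in YM. The rest were positive, up to 0.96 (NOP16). Whether the level before treatment bears on the response was not tested. DBP2 had 528 and 484 CPM untreated and 408 and 136 CPM treated, and GAR1 had 161 and 156 CPM untreated and 126 and 115 CPM treated.

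Whether the response to MCHM differed between media was tested as the difference between the fold changes. In petite yeast the response in YM less that in YPD was positive for 55 of 55 genes, with a median of 0.91 and a standard error between 0.34 and 0.87 for single genes. edgeR called 0 of the 55 genes (0.461% of all genes in either direction), and 17 had an unadjusted p under 0.05 (13.5% of all genes). DESeq2 called 2, and its share of all genes is not given. The difference was 1.39 for GAR1 (adjusted p = 0.13 by edgeR), 1.20 for NOP56 (adjusted p = 0.14) and 1.97 for DBP2 (adjusted p = 0.33). The median was 0.50 without the higher-series untreated petite library in YPD. In grande yeast the same difference had a median of 0.57 and was positive for 52 of 55 genes. There, 0 of the 55 genes and 0% of all genes were called by edgeR, and 8 of the 55 genes had an unadjusted p under 0.05 (7.53% of all genes). DESeq2 called 1, again without a share of all genes. EBP2 had the largest difference, 1.82 (SE 0.43, adjusted p = 0.23 by edgeR). The median in grande yeast was -0.03 without the higher-series untreated library in YPD, 0.95 without the lower-series one, 0.23 without the lower-series untreated library in YM and 0.33 without the higher-series treated library in YM. For the 55 genes, a smaller response in YM than in YPD was therefore seen in most values and was not called by edgeR for any gene.

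**Figure D4:**
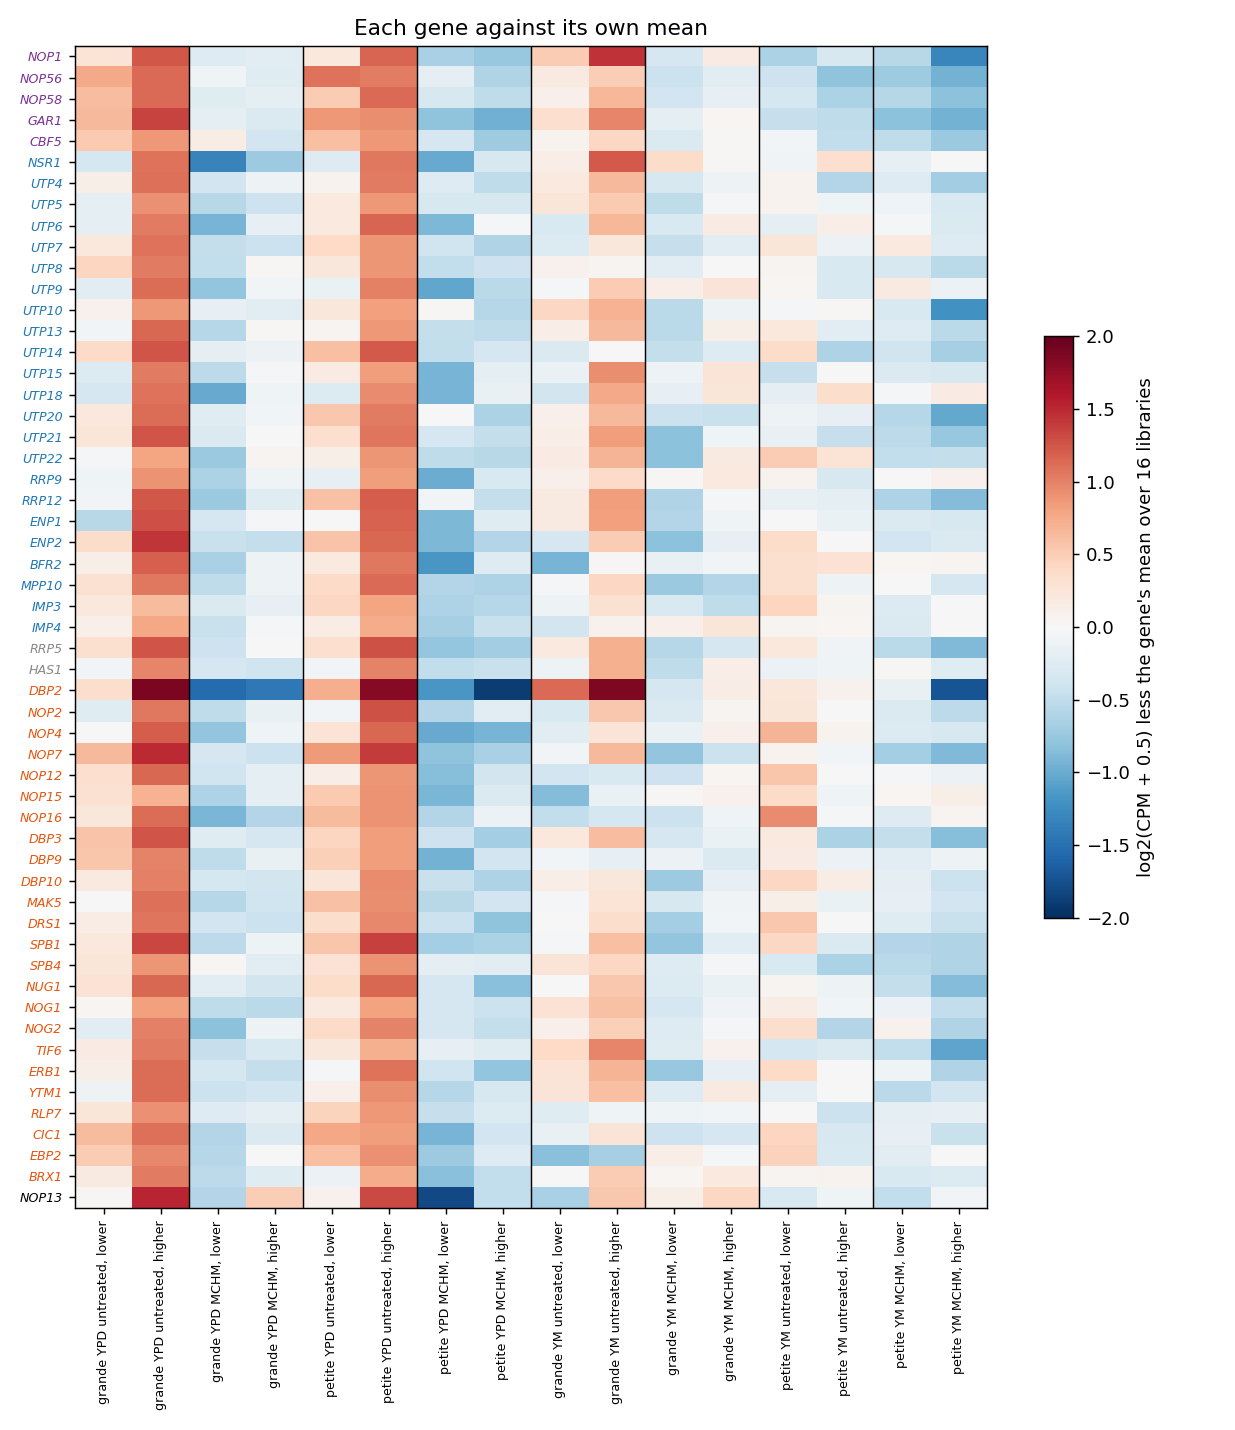
Rows are the 55 genes grouped by role (label colours as in the plot of levels), columns are the 16 libraries, and the colour is log2(normalized CPM + 0.5) less the mean of the gene over the 16 libraries. The untreated higher-series libraries in YPD are above the mean for nearly all rows, the treated libraries in YPD are below it for most rows, and DBP2 spans the widest range, from 122 to 1682 CPM.

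The second question was whether petite yeast differed from grande yeast in these genes. Untreated in YPD they did not stand apart. The median log2 fold change of petite against grande was 0.01, with a range of -0.31 to 0.22 and standard errors of 0.24 to 0.59. Of the 55 genes 0 were called, as were 0% of all genes, and 0 had an unadjusted p under 0.05 (2.6% of all genes), with 0 called by DESeq2 as well. The median lay between -0.38 and 0.52 when each library was left out in turn, the lowest without the higher-series untreated petite library in YPD and the highest without the higher-series untreated grande one. With MCHM in YPD the median was -0.22, and 46 of 55 genes had a negative value. Of the 55 genes 0 were called by edgeR or DESeq2 (1.52% of all genes by edgeR in either direction) and 1, GAR1, had an unadjusted p under 0.05 (11.1% of all genes). GAR1 had a log2 fold change of -0.65 (SE 0.27, adjusted p = 0.38 by edgeR). The median was -0.08 without the higher-series treated grande library and -0.13 without the lower-series treated petite library.

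In untreated yeast in YM 2 of the 55 genes were called lower in petite yeast, NOP1 and GAR1 (called lower among all genes: 5.09%). As a share of the 55 genes this is below that of all genes. NOP1 had 1305 and 2508 CPM in grande yeast and 594 and 738 CPM in petite yeast, a log2 fold change of -1.52 (SE 0.44, adjusted p = 0.038 by edgeR). GAR1 had 280.2 and 438 CPM in grande yeast and 161 and 156 CPM in petite yeast, a log2 fold change of -1.18 (SE 0.27, adjusted p = 0.016). Both encode snoRNP proteins. The other 3 genes of that role also had negative values there, as did most of the 55 genes, with a median of -0.93 over the 5. Whether the roles differ was not tested. NOP56 had -0.93 (adjusted p = 0.025 by edgeR), which is under 2-fold, and NOP58 had -0.89 (adjusted p = 0.055). Over all 55 genes the median was -0.32 and 40 had a negative value. TIF6 had -1.03 (adjusted p = 0.053 by edgeR) and DBP2 had -1.38 (adjusted p = 0.13). EBP2 was on the other side, with 46.6 and 52.4 CPM in grande yeast and 116 and 67.7 CPM in petite yeast and a log2 fold change of 0.89 (adjusted p = 0.071 by edgeR). The median was 0.08 within the lower series and -0.64 within the higher series. Both calls were lost in some fits that left out a single library, and other such fits called more genes. The median was -0.04 without the higher-series untreated grande library in YM and -0.65 without the lower-series one.

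With MCHM in YM the median of petite against grande was -0.19, and 39 of 55 genes had a negative value. None was called by edgeR or DESeq2 (0 of 55, with 3.72% of all genes called by edgeR in either direction), and 1 of the 55 genes, GAR1, had an unadjusted p under 0.05 (21.9% of all genes). GAR1 had 194 and 228 CPM in treated grande yeast and 126 and 115 CPM in treated petite yeast, a log2 fold change of -0.81 (SE 0.27, adjusted p = 0.1 by edgeR). The median lay between -0.30 and -0.04 when each library was left out in turn, the lowest without the lower-series treated grande library in YM and the highest without the higher-series one.

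The difference between the strains in the response to MCHM, petite less grande, was tested in both media. In YPD the median difference over the 55 genes was -0.18. Of the 55 genes 0 were called, as were 0% of all genes, and 0 had an unadjusted p under 0.05 (4.35% of all genes), with 0 called by DESeq2. For GAR1 the difference was -0.51 and for DBP2 it was -0.07. The larger number of calls in petite yeast, 27 against 6, therefore did not come with a called difference in response for any of the 55 genes. The median difference changed sign when single libraries were left out, and ranged from -0.70 without the higher-series untreated grande library to 0.22 without the higher-series untreated petite library. In YM the median difference was 0.16, 0 of the 55 genes were called by edgeR or DESeq2 (0.0171% of all genes by edgeR in either direction), and EBP2 was the 1 gene with an unadjusted p under 0.05 (8.61% of all genes), at -1.03 (adjusted p = 0.5 by edgeR). This median ranged from -0.04 without the higher-series untreated grande library in YM to 0.55 without the lower-series one. The untreated strain difference in YM less that in YPD had a median of -0.30, with 0 of the 55 genes called by edgeR or DESeq2 (0.529% of all genes by edgeR in either direction) and 4 with an unadjusted p under 0.05 (15.9% of all genes). They were NOP1 (-1.44), GAR1 (-1.04), NOP56 (-1.02) and the helicase SPB4. This median ranged from -0.996 without the higher-series untreated grande library in YPD to 0.15 without the higher-series untreated petite library in YPD.

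The third comparison was that of the media. In untreated petite yeast 5 of the 55 genes were called lower in YM than in YPD (called lower among all genes: 6.22%), and 55 of 55 had a negative value with a median of -0.70. The genes were NOP56, GAR1 and NOP58 of the snoRNPs and NOP7 and SPB4 of the large subunit. NOP56 had 489 and 467 CPM in YPD and 173 and 131 CPM in YM, a log2 fold change of -1.65 (SE 0.24, adjusted p = 0.0012 by edgeR). GAR1 had 407 and 422 CPM in YPD and 161 and 156 CPM in YM, a log2 fold change of -1.39 (SE 0.27, adjusted p = 0.0049). NOP58 had -1.34 (adjusted p = 0.0074 by edgeR), NOP7 -1.15 (adjusted p = 0.027) and SPB4 (YFL002C) -1.10 (adjusted p = 0.012), and CBF5 had -0.9999 (adjusted p = 0.025), just under 2-fold. The series differed in the size of this effect. The median was -0.15 within the lower series and -1.15 within the higher series. The number called changed in both directions when single libraries were left out. The median was -0.31 without the higher-series untreated petite library in YPD.

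In untreated grande yeast 1 of the 55 genes, EBP2, was called lower in YM (called lower among all genes: 0.734%). EBP2 had 119 and 164 CPM in YPD and 46.6 and 52.4 CPM in YM, with no overlap and a log2 fold change of -1.52 (SE 0.31, adjusted p = 0.024 by edgeR). Over the 55 genes the median was -0.38, and 49 had a negative value. The call was lost without either untreated grande library in YM or without the higher-series untreated one in YPD. The median was 0.17 without the higher-series untreated library in YPD, -0.78 without the lower-series one, -0.10 without the lower-series untreated library in YM and -0.68 without the higher-series one. With MCHM the 2 media differed less. In treated grande yeast the median was 0.13, 0 of the 55 genes were called by edgeR or DESeq2 (0.427% of all genes by edgeR in either direction), and 2 of the 55 genes, DBP2 and NSR1, had an unadjusted p under 0.05 (13.3% of all genes), with log2 fold changes of 1.40 and 1.20. The median was -0.03 without the higher-series treated grande library in YM and 0.29 without the lower-series one. In treated petite yeast the median was 0.19, 0 of the 55 genes were called by edgeR or DESeq2 (5.14% of all genes by edgeR in either direction), and 0 had an unadjusted p under 0.05 (22.9% of all genes). Leaving out each library kept this median between 0.05 and 0.24.

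Counted over the 12 comparisons between groups, 29 of the 55 genes were called at least once and 26 never, whereas 27.7% of all genes were called at least once and 14.5% were called lower at least once. Of the genes never called, 16 were among the 23 small subunit factors and 8 among the 24 large subunit factors, while each of the 5 snoRNP proteins was called at least once. Every call was in the lower direction, with MCHM, in petite yeast or in YM. GAR1 was called in 4 comparisons, and NOP56 and NOP7 in 3. With MCHM the median in petite yeast in YPD was -1.21 for the 44 genes with PAC and RRPE letters and -1.17 for the 11 others, of which 10 hold one of the elements. In grande yeast in YPD the medians were -1.05 and -1.02.

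Other lists of the pathway are given for comparison, by their counts and medians alone. A further 91 ribosome biogenesis factors lay close to the 55 genes, with medians of -1.02 and -1.20 with MCHM in grande and petite yeast in YPD, where 10 and 46 of the 91 were called lower. Of 15 subunits and factors of RNA polymerase I, 0 and 5 were called lower, with medians of -0.77 and -0.56. Of 12 genes of RNA polymerase III, which makes 5S ribosomal RNA and transfer RNAs, 1 and 5 were called lower, with medians of -0.58 and -0.89. Among 17 regulators of the pathway 0 and 1 were called, with medians of -0.06 and -0.14. The regulators thus lay close to the median of all genes in both strains.

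The 136 tested genes of cytosolic ribosomal proteins were set beside the 55 assembly factors, since both groups serve the same product. With MCHM in grande yeast in YPD the median was -1.04 for the assembly factors and -0.37 for the ribosomal proteins, of which 0 were called. In petite yeast in YPD the medians were -1.19 and -1.46, and 111 of 136 ribosomal protein genes were called lower. The comparison of the strains gave a larger share of calls among the ribosomal proteins. For petite against grande yeast with MCHM in YPD, 62 of 136 were called lower with a median of -1.24, against 0 of 55 and -0.22. Among all genes tested, 89 (1.52%) were called in either direction in that comparison. In untreated yeast in YM 44 of 136 were called lower with a median of -0.93, against 2 of 55 and -0.32. The shares of all counts show the same values in another form. Ribosomal protein genes took 14.6% and 12.4% of the counts in treated grande yeast in YPD and 6.64% and 6.03% in treated petite yeast, while the 55 genes took 0.574% and 0.661% in the first group and 0.549% and 0.652% in the second. For the difference between the MCHM responses of petite and grande yeast in YPD, the medians were -1.085 over the ribosomal proteins, of which 95 of 136 had an unadjusted p under 0.05 and 0 were called, and -0.18 over the assembly factors. Many ribosomal proteins come from pairs of near-identical genes whose reads could be assigned to either copy, so single genes of that list are not named, and no test of the difference between the 2 lists was made.

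**Figure D5:**
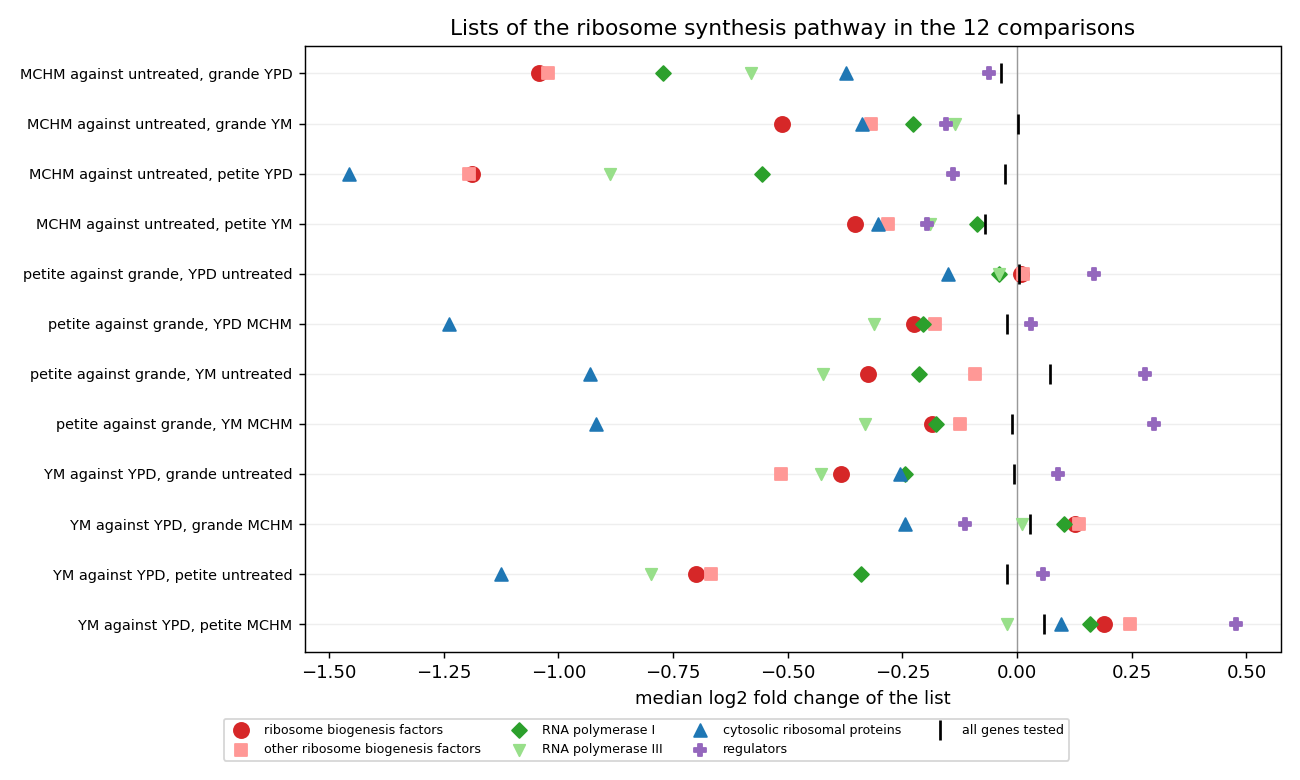
Median log2 fold change (horizontal axis) of the 55 genes and of 5 other lists and all genes tested, in the 12 comparisons (vertical axis). The 55 genes and the other 91 biogenesis factors lie side by side in most rows, and in the 3 lower rows of petite against grande the ribosomal protein genes lie at -1.24, -0.93 and -0.92, well to the left of the 55 genes at -0.22, -0.32 and -0.19.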

How the data were processed

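RNA-seq libraries were unstranded and paired-end. Read pairs were assigned to genes by the authors with Rsubread, and the deposited values are raw counts of 6717 genes in 16 columns, not normalized. The submitters' processing notes name CASAVA 1.7, TopHat2 2.0.12 and DESeq2 1.8.1 and the builds R64 and sacCer3, and the annotation is not given in the sources used here. A second deposited table holds only the authors' own comparisons and was not used. Columns were assigned to groups by name, and the names do not show which labelled replicate a column is. The deposited depth was 2015485 to 5694566 counts per library, and a gene with few counts is measured less precisely.

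Counts were scaled by TMM and filtered with filterByExpr (minimum count 10, minimum total 15), which left 5856 genes. A model with 8 group means was fitted to all 16 libraries with edgeR 4.0.16 (quasi-likelihood) in R 4.3.3, limma 3.58.1, and DESeq2 1.42.0 as an alternative, and 17 contrasts were tested. A standard error is the log2 fold change over the root of its F statistic. CPM on the log2 scale has 0.5 added. Labels state that cultures were divided between treatments, so culture numbers pair treated and untreated libraries. Their deviations from the group means correlated across genes at 0.523 (grande, YPD), 0.479 (petite, YPD), 0.334 (grande, YM) and 0.34 (petite, YM). Over all 28 pairs of groups, same-series deviations correlated at a median of 0.455 (0.0257 to 0.735). The values for shared cultures lie inside that range, so they do not separate a shared culture from a shared series. The edgeR fit was also run on simulated counts with changes set in treated petite yeast in YPD alone. These counts held no culture pairing and no series difference, so the run does not show how those bear on the calls. Symbols came from the R64 annotation, which matched 6025 identifiers, and sequences from the R64 genome of RefSeq. Figures used Python 3.11.15.

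The 55 genes and the other lists were chosen with earlier results of these data known. Named genes were 22 fixed members plus the 5 largest changes among called genes with non-overlapping groups in each MCHM and strain comparison. Others were named because they were called or had an unadjusted p under 0.05, after their values were seen. Alternatives were other scalings, no filter, no fold bound, a DESeq2 Wald test, replicate blocks, only the groups compared, values within a series and leaving out each library.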

Additional observations from a re-analysis of the deposited data

Results flagged for a closer look

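Among the 55 genes 6 had an MCHM response that went opposite ways in every culture of a pair of groups, and in none of them did the test of the difference pass the adjustment over all genes. The share of all genes that did so was not counted. In grande yeast 5 genes had less CPM with MCHM in both YPD cultures and more in both YM cultures. The rise in YM was small for some of them and was called for none. Their log2 fold changes in grande yeast in YM were 0.81 (EBP2), 0.51 (NOP15), 0.30 (IMP4), 0.17 (NOP16) and 0.09 (RLP7). The difference of the log2 fold changes, YM less YPD, was 1.82 for EBP2 (adjusted p = 0.23 by edgeR), 1.67 for NOP16 (adjusted p = 0.36), 1.41 for NOP15 (adjusted p = 0.36), 1.00 for IMP4 (adjusted p = 0.55) and 0.94 for RLP7 (adjusted p = 0.52). UTP9 had less CPM with MCHM in both petite cultures in YPD and more in both petite cultures in YM, with a difference of 1.49 (adjusted p = 0.35 by edgeR). Between the strains in YM, IMP4 had more CPM with MCHM in both grande cultures and less in both petite cultures, with a difference of -0.49 for petite less grande (adjusted p = 0.86 by edgeR).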

How the results depend on the processing

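The number of the 55 genes called lower with MCHM in the grande strain in YPD, 6, was 10 with library size alone, 20 with DESeq2's Wald test, 17 with either the culture or the series as a replicate block and 0 with only the groups compared. In petite yeast in YPD the 27 became 42 with the culture and 44 with the series as a replicate block, and 8 with only the groups compared. With the culture as a block, 1.45% (grande) and 6.47% (petite) of all genes were called lower. The share of all genes called under the other alternatives is not given, so their counts cannot be set beside it. DESeq2 called 1 gene with MCHM in grande yeast in YM. Between untreated strains in YM the 2 calls became 4 with no filter on low counts and 0 with only the groups compared. Between media, the 1 call in untreated grande yeast became 3 with DESeq2, 3 with the series as a replicate block and 0 with only the groups compared, and the 5 calls in untreated petite yeast became 8 with the series block and 2 with only the groups compared. For the MCHM response in YM less that in YPD, DESeq2 called 1 gene in grande and 2 in petite yeast, and the series block 1 in petite yeast. The series was a block chosen from numbers in the column names, with a median correlation of 0.455 between same-series deviations over 28 pairs of groups. Within the lower series the medians were -0.61 (grande) and -0.86 (petite) for MCHM in YPD, 0.084 between untreated strains in YM and -0.15 between media in untreated petite yeast, which was -1.15 within the higher series. Leaving out each library in turn gave 0 to 17 calls and a median of -1.42 to -0.47 for MCHM in the grande strain in YPD, and 2 to 37 calls and -1.47 to -0.83 in the petite strain. Between untreated strains the ranges were -0.38 to 0.52 in YPD and -0.65 to -0.044, with 0 to 5 calls, in YM. Between media in untreated yeast they were -0.78 to 0.17 with 0 to 1 calls in grande and -1.02 to -0.31 with 2 to 9 calls in petite yeast. For the differences between responses the medians were -0.025 to 0.95 (YM less YPD, grande), 0.50 to 1.16 (YM less YPD, petite), -0.70 to 0.22 (petite less grande, YPD), -0.036 to 0.55 (petite less grande, YM) and -0.996 to 0.15 (untreated strains, YM less YPD). The higher-series untreated library in YPD set 1 end of most of these ranges. Library size alone moved the median of all genes by over 0.1 in 6 comparisons, by up to 0.32 in treated strains in YM. The causes were not tested. Among the values of named genes under alternatives, 9324 kept their direction and side of the threshold, 91 passed newly, 135 were lost and 0 changed sign when called.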
